A study of Mus musculus with 4 samples.

Results

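The clustered replication-dependent histone genes package newly made DNA. They comprise the linker histone H1, which binds where DNA enters and leaves the nucleosome, and the core histones H2A, H2B, H3 and H4. They are transcribed mainly in S phase, and their mRNAs usually end in a stem-loop, bound by SLBP, in place of a poly-A tail. Some of these genes can also make a longer, polyadenylated transcript that reads past the stem-loop, which is known above all from cells that have stopped dividing. The genes lie in clusters named Hist1 to Hist4 in the symbols used here.

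The members were all gene intervals whose symbol starts with Hist, a cluster number from 1 to 4 and a histone class. This gave 70 of the 38921 intervals, each with a symbol of its own. By class they were 6 H1, 20 H2A, 19 H2B, 12 H3 and 13 H4 genes. By cluster, 56 belong to Hist1 on chromosome 13, 10 to Hist2 on chromosome 3, 3 to Hist3 on chromosome 11 and 1 to Hist4 on chromosome 6. GENCODE M21 gives 67 of them as protein coding and 3 as pseudogenes (Hist1h2aj, Hist1h2al and Hist3h2bb-ps).

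The libraries came from cultured mouse pancreatic fibroblasts, 2 from KPC animals (KPC 1 and KPC 2) and 2 from wild type animals (wild type 1 and wild type 2), all called biological replicates and grown in DMEM with 10% serum. KPC commonly names a mouse line prone to pancreatic cancer, in which Cre driven by the Pdx1 promoter turns on engineered alleles that include mutant Trp53; the labels give only the name, a mixed strain and no age. RNA was selected for poly-A tails before sequencing, so an ordinary histone mRNA without a tail should be largely lost in all 4 libraries. Levels are given as CPM, the deposited read count relative to the library's summed counts after TMM scaling, and log2 fold changes are KPC over wild type from edgeR's quasi-likelihood test. Its p-values set each difference against how far the 4 libraries vary within their groups.

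Summed counts were 57926327 in KPC 1, 68312367 in KPC 2, 53232634 in wild type 1 and 22302141 in wild type 2, so wild type 2 was the shallowest. Histone genes held 0.0675% and 0.0544% of the counts in the KPC libraries, against 0.0712% and 0.103% in the wild type libraries. The libraries also differed in markers of other cells. All 9 macrophage and leukocyte markers in the tables were higher in KPC without overlap between the groups, as were 20.6% of all tested intervals. Their summed levels were 776 and 1653 CPM in KPC against 27.1 and 184 CPM in wild type. Of these sums, Lyz2 held 629 and 1415 CPM in KPC and 6.24 and 132 CPM in wild type. Epithelial markers summed to 1170 and 430 CPM in KPC against 29.7 and 421 CPM in wild type. Endothelial markers summed to 16.3 and 25.1 CPM in KPC against 670 and 35.0 CPM in wild type, and endocrine markers to 0.527 and 1.28 CPM against 1.75 and 941 CPM. Schwann and neural markers summed to 1.17 and 0.840 CPM in KPC against 26.7 and 3.67 CPM in wild type. The endocrine markers Ins1 and Gcg were at 0 in KPC 1, and Sst was at 0 in both KPC libraries and wild type 1. The defining marker Foxd3 of the Schwann list was at 0 in KPC 1. Fibroblast markers, the labelled cell type, summed to 11104 and 12749 CPM in KPC against 13396 and 11252 CPM in wild type. The part of this cell mix in the histone results was not tested.

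The lowest KPC values relative to wild type were those of the H2A genes. All 20 had a negative log2 fold change, with a median of -1.03, and 19 of them were lower in both KPC libraries than in either wild type library. The other classes had medians of 0.11 for H1, -0.27 for H2B, -0.09 for H3 and -0.41 for H4, beside -0.01 over all 23046 intervals tested. Without wild type 2 the medians were -0.90 for H2A, 0.61 for H1, -0.06 for H2B, 0.14 for H3 and -0.04 for H4. No histone gene passed edgeR's test at an adjusted p of 0.05 in either direction, where 0% of all tested intervals passed in each direction. Fewer cells of a type and less RNA per cell cannot be told apart in such bulk libraries.

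Of the 70 genes, 66 passed the filter on low counts and were tested. Of these, 60 had a negative and 6 a positive log2 fold change, with a median of -0.36 (-0.08 without wild type 2), and 48.8% of all tested intervals were positive. The KPC and wild type values did not overlap in 25 histone genes, all lower in KPC, and in 0 higher in KPC. Over all tested intervals, 20.5% were lower and 20.6% higher in KPC without overlap. The 25 were the 19 H2A genes, Hist1h1b, Hist2h2bb, Hist3h2ba, Hist2h3c1, Hist2h3c2 and Hist1h4n. At an unadjusted edgeR p under 0.05, 17 histone genes were lower, all of them H2A, and 0 were higher, where 3.94% of all intervals were lower and 4.73% higher. With DESeq2, which takes the spread differently, 15 histone genes passed an adjusted p of 0.05, all H2A and all lower, where 1.28% of all intervals passed lower and 1.44% higher. With limma voom, 0 histone genes passed. The plot of fold changes shows the H2A genes as a block near a log2 fold change of -1.

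**Figure D1:**
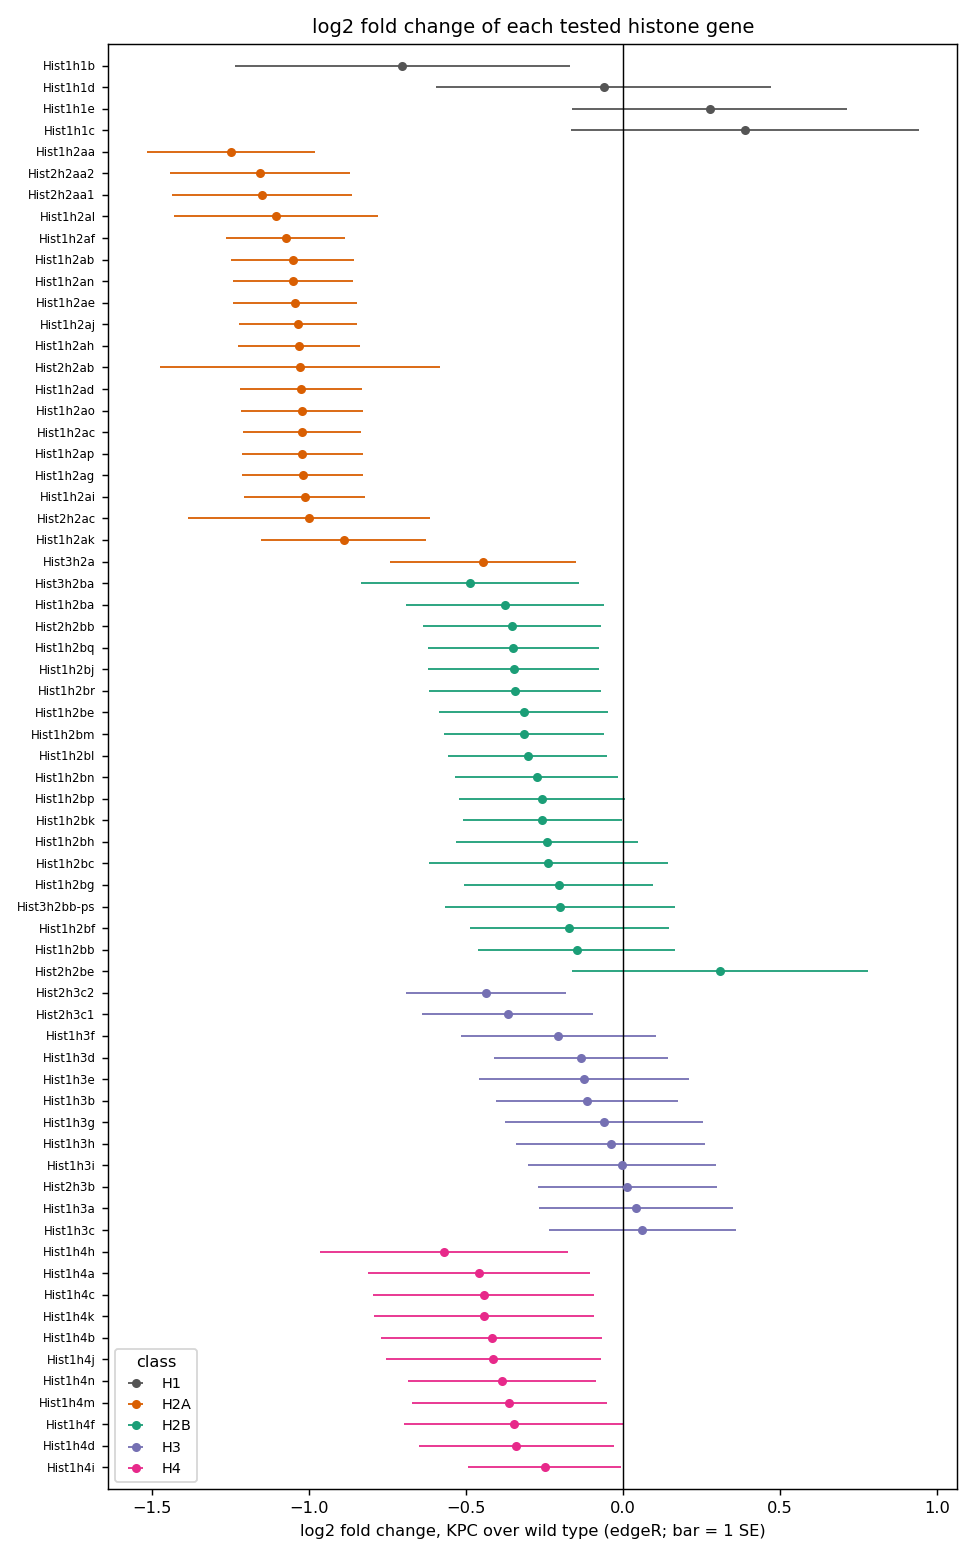
Log2 fold change, KPC over wild type, of each of the 66 tested histone genes. They are grouped by class from H1 at the top to H4 at the bottom. Points are edgeR estimates and bars 1 standard error, derived from the test's F statistic. The 20 H2A genes lie between -1.25 and -0.45, and 19 of them lie at -0.89 or below; the lowest gene of another class is Hist1h1b at -0.70.

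The H2A values rest on sequence that these genes share. The H2A genes are near copies, and a read can match many of them. Intervals with a single count most often covered 37 bases, fewer than the 50-base reads the labels name, so that length was taken for a read's aligned span. On this length, a median of 21.5% of the 37-base stretches in an H2A gene's GENCODE transcripts occurred in no other gene, against 47.3% for H2B, 37.3% for H3, 55.5% for H4 and 97.7% for H1. Within the coding part the medians were 6.78% for H2A, 14.8% for H2B, 10.6% for H3, 25.6% for H4 and 86.0% for H1. The most widely shared 37-base stretch of each class, from the coding strand of GENCODE M21 transcripts (GRCm38), shows how far reads can be common to a class.
H2A, from Hist1h2aa on chromosome 13 (+): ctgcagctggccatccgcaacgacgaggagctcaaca
H2B, from Hist1h2ba on chromosome 13 (-): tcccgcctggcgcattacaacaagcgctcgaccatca
H3, from Hist1h3a on chromosome 13 (-): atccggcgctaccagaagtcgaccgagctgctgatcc
H4, from Hist1h4a on chromosome 13 (-): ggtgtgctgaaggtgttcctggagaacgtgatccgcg

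The H2A stretch occurs in 18 of the 20 H2A genes, the H2B stretch in 17 of 19, the H3 stretch in 12 of 12 and the H4 stretch in 11 of 13. The H1 genes share less, and their most shared stretch is in 3 of 6. Outside the 70 genes, the H2A stretch also occurs in 27 genes, the H2B stretch in 0, the H3 stretch in 2 and the H4 stretch in 1. Among the 27 is H2afx, a variant H2A gene outside the clusters that marks DNA breaks when phosphorylated. A group of 11 Hist1 H2A genes was picked by sequence, as those sharing 102 to 108 stretches with H2afx. These genes had nearly the same count within a library. Their counts lay between 527 and 663 in KPC 1 and between 660 and 813 in KPC 2. In wild type 1 they lay between 979 and 1150, and in wild type 2 between 464 and 568. Hist1h2an, with 91 such stretches, was left out of the 11. Its counts of 566 and 727 in KPC and 1040 and 500 in wild type lie within the same ranges. These 11 are therefore close to one measurement repeated, and the sums over genes below are sums over intervals that share reads, not numbers of reads. Unshared sequence and fold change are set against each other in the plot of these values: 4 H2A genes have over 50% unshared sequence. Of these, Hist1h2ac and Hist1h2ae belong to the 11 with nearly the same counts. Only 13.8% of the stretches in the coding part of each are unshared, so their values near -1 are not separate evidence. In the coding part of Hist3h2a 0% of the stretches are unshared. In that of Hist1h2aa 72.6% are, but Hist1h2aa still shares stretches with 17 other H2A genes.

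**Figure D2:**
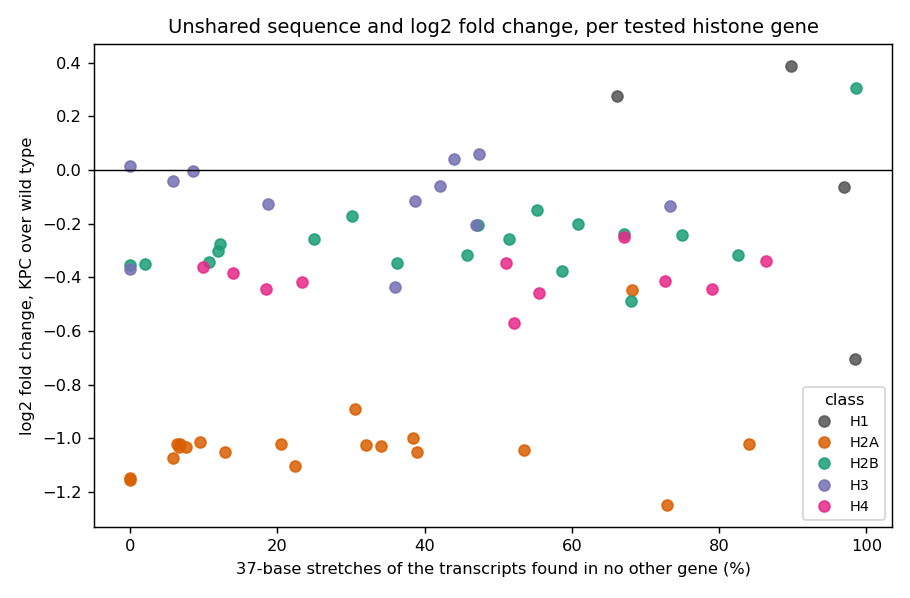
Percent of each gene's 37-base transcript stretches found in no other gene (horizontal) against its log2 fold change, KPC over wild type (vertical), for the 66 tested histone genes, coloured by class. Hist1h2ac, at 84.1% unshared, has a log2 fold change of -1.02 and is one of the 11 genes with nearly the same counts. The H2A gene nearest 0, Hist3h2a, has 68.1% unshared (0% within its coding part) and -0.45.

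Summed over all 20 H2A genes, the level was 199 and 212 CPM in KPC against 362 and 479 CPM in wild type. Both KPC sums were lower than both wild type sums, with a log2 ratio of means of -1.03. With 2 libraries against 2, an exact permutation test has only 6 arrangements and cannot reach 0.05, so sums are given with no test.

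Hist1h2af (chromosome 13, 23533906 to 23534304 in mm10), a Hist1 gene for the core histone H2A, had the smallest p of all members. It stood at 8.95 and 9.73 CPM in KPC against 18.6 and 20.7 CPM in wild type. Each group's values were close together and the groups were far apart. Its log2 fold change was -1.07 ± 0.19 (SE), with an adjusted p of 0.307 by edgeR and 0.00154 by DESeq2. Only 5.79% of its 37-base stretches are its own, so this is a value of the shared pool.

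The other H2A genes of smallest p were Hist1h2an, Hist1h2aj, Hist1h2ac and Hist1h2ab. Hist1h2ac (chromosome 13, 23681467 to 23683948) has a long interval and, over its whole transcripts, the most unshared sequence among H2A genes. It is nevertheless one of the 11 with nearly the same counts, with 13.8% of its coding stretches unshared. It stood at 11.3 and 11.9 CPM in KPC against 21.7 and 25.4 CPM in wild type. The KPC values were close together and both below the wild type values, and edgeR's adjusted p was 0.330. Hist1h2ab, Hist1h2aj and Hist1h2an had log2 fold changes of -1.05, -1.03 and -1.05. Hist1h2aa, named after its values were seen because it had the most negative value of the H2A genes, has 72.9% unshared sequence. Between 24.9% and 29.6% of its interval was covered in a library, so most of the gene had no reads. Whether its reads belong to the stretches it shares with 17 other H2A genes was not tested. Hist1h2aa stood at 1.56 and 1.87 CPM in KPC against 4.18 and 3.98 CPM in wild type. Its log2 fold change was -1.25 ± 0.27 (SE), with an adjusted p of 0.374 by edgeR and 0.0274 by DESeq2.

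In the Hist2 cluster the H2A genes are Hist2h2aa1, Hist2h2aa2, Hist2h2ab and Hist2h2ac. Hist2h2aa1 (chromosome 3, 96245538 to 96246115) and Hist2h2aa2 (chromosome 3, 96239785 to 96240323) have no 37-base stretch that is found in no other gene, and they returned almost the same values. Hist2h2aa1 stood at 16.2 and 15.8 CPM in KPC against 26.9 and 44.2 CPM in wild type. The KPC values were alike, and wild type 2 stood well above wild type 1. Its log2 fold change was -1.15 ± 0.29 (SE), with an adjusted p of 0.438 by edgeR and 0.0445 by DESeq2. Hist2h2ac stood at 8.22 and 8.52 CPM in KPC against 10.95 and 22.6 CPM in wild type, and Hist2h2ab at 2.57 and 2.64 CPM against 3.31 and 7.38 CPM. Both had no overlap, but the gap to wild type 1 was small and most of the difference lay in wild type 2. Summed, the Hist2 H2A genes had 43.1 and 42.7 CPM in KPC against 67.9 and 118 CPM in wild type.

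The pseudogene Hist1h2al lies on chromosome 13 at 51202688 to 51203065, far from the other Hist1 genes, and stood at 11.2 and 11.6 CPM in KPC against 17.5 and 31.5 CPM in wild type. Its sequence overlaps that of the others, so its reads cannot be told apart from theirs. Hist3h2a (chromosome 11, 58954685 to 58956674), the H2A gene of the Hist3 cluster, was the exception. It stood at 9.31 and 7.84 CPM in KPC against 9.11 and 14.3 CPM in wild type, and the groups overlapped. Its log2 fold change was -0.45 ± 0.30 (SE), with an adjusted p of 0.712 by edgeR.

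Levels between genes were compared per kilobase of interval. By this measure Hist2h2aa2, Hist1h2al and Hist2h2aa1 had the highest mean levels among H2A genes, at 47.8, 47.6 and 44.6 CPM per kilobase over the 4 libraries. Hist1h2bl, Hist1h2bj and Hist1h2bk led H2B, at 44.7, 39.5 and 34.4 CPM per kilobase. Before division by length the highest H2B gene was Hist1h2bc, named after its values were seen, which weighs most in the H2B sums. It stood at 59.0 and 37.9 CPM in KPC against 40.5 and 73.9 CPM in wild type. At most 14.8% of its interval of 8289 bases was covered in any library, and this length puts it lower per kilobase. H4 was led by Hist1h4k, Hist1h4i and Hist1h4h at 14.3, 13.7 and 11.2, and H3 by Hist1h3h, Hist1h3i and Hist2h3c2 at 4.64, 4.63 and 4.42 CPM per kilobase. H3 genes were thus the lowest of the core classes by their leading members. H1 was led by Hist1h1c at 38.3 CPM per kilobase, ahead of Hist1h1e at 3.53 and Hist1h1d at 1.14.

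**Figure D3:**
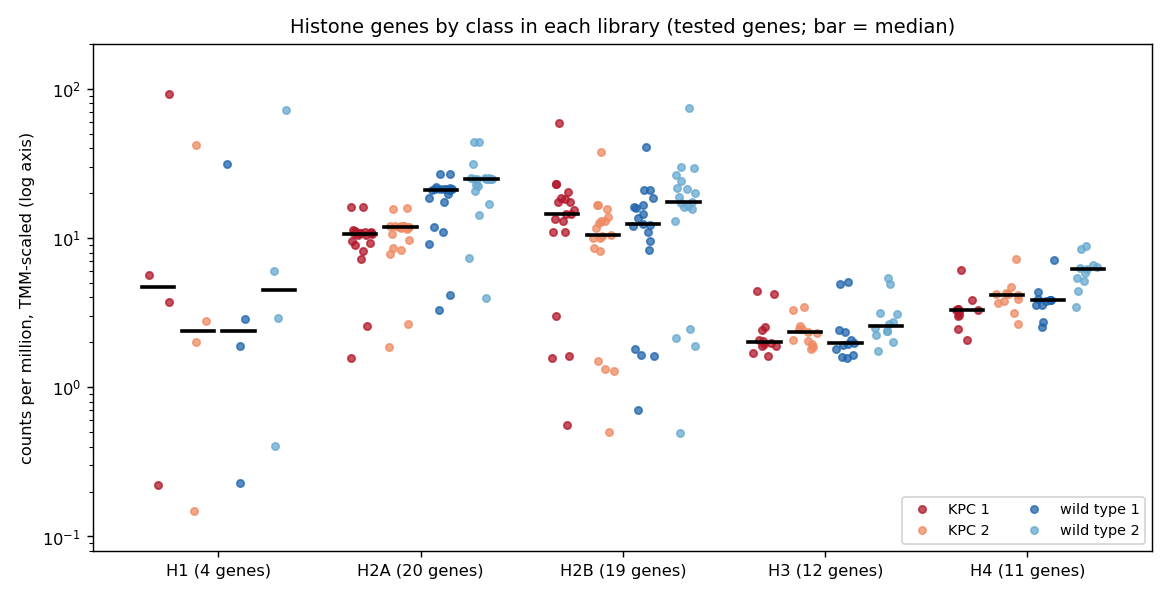
CPM after TMM scaling (log axis) of each tested histone gene in KPC 1, KPC 2, wild type 1 and wild type 2, from left to right within each class; black bars are medians over the tested genes of the class. The H2A medians are 10.7 and 11.9 in KPC and 21.1 and 24.97 in wild type, while the medians of the other classes overlap between the groups.

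For H2B, the partner of H2A in the nucleosome, the summed levels of the groups overlapped. The 19 H2B genes summed to 297 and 213 CPM in KPC against 249 and 368 CPM in wild type. Of 19 tested, 18 had a negative log2 fold change, and the smallest edgeR adjusted p was 0.729. Hist1h2bl stood at 17.5 and 12.9 CPM in KPC against 16.2 and 21.3 CPM in wild type, Hist1h2bj at 18.3 and 13.8 CPM against 16.8 and 24.1 CPM, and Hist1h2bk at 17.4 and 12.5 CPM against 15.9 and 19.9 CPM. In all 3 of these genes KPC 2 was lowest and wild type 2 highest, with KPC 1 and wild type 1 close together between them. Hist1h2be, whose interval of 37382 bases reaches far beyond its coding part, stood at 20.5 and 15.5 CPM in KPC against 18.5 and 26.5 CPM in wild type. Of that interval at most 9.46% was covered in any library, and another annotated gene, Gm11398, lies over it.

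The Hist2 and Hist3 genes for H2B were low. Hist2h2be, with 98.6% unshared sequence, was the only H2B gene with a positive value, at 2.99 and 1.33 CPM in KPC against 1.62 and 1.88 CPM in wild type. Both the highest and the lowest value were in KPC libraries. Hist2h2bb stood at 1.58 and 1.503 CPM in KPC against 1.81 and 2.15 CPM in wild type, and Hist3h2ba at 1.63 and 1.28 CPM against 1.65 and 2.46 CPM. Neither overlapped, by narrow gaps, with edgeR adjusted p of 0.765 and 0.729. The pseudogene Hist3h2bb-ps stood at 0.561 and 0.501 CPM in KPC against 0.704 and 0.492 CPM in wild type.

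Within one library the ratio of summed H2A to summed H2B counts needs no scaling between libraries. It was 0.670 and 0.994 in KPC against 1.45 and 1.30 in wild type. Both KPC ratios were below both wild type ratios. The ratio of the median H2A count to the median H2B count was 0.735 and 1.13 in KPC against 1.70 and 1.42 in wild type, again without overlap. The same was asked of 13 pairs of an H2A and an H2B gene that lie head to head, with 168 to 306 bases between their starts. The log2 fold change of the H2A gene was below that of its H2B neighbour in 13 of 13 pairs, and the ratio within a library was lower in both KPC libraries than in either wild type library in 12 of 13. Hist3h2a with Hist3h2bb-ps was the exception. The 13 pairs share reads within each class and do not count as 13 separate measurements.

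**Figure D4:**
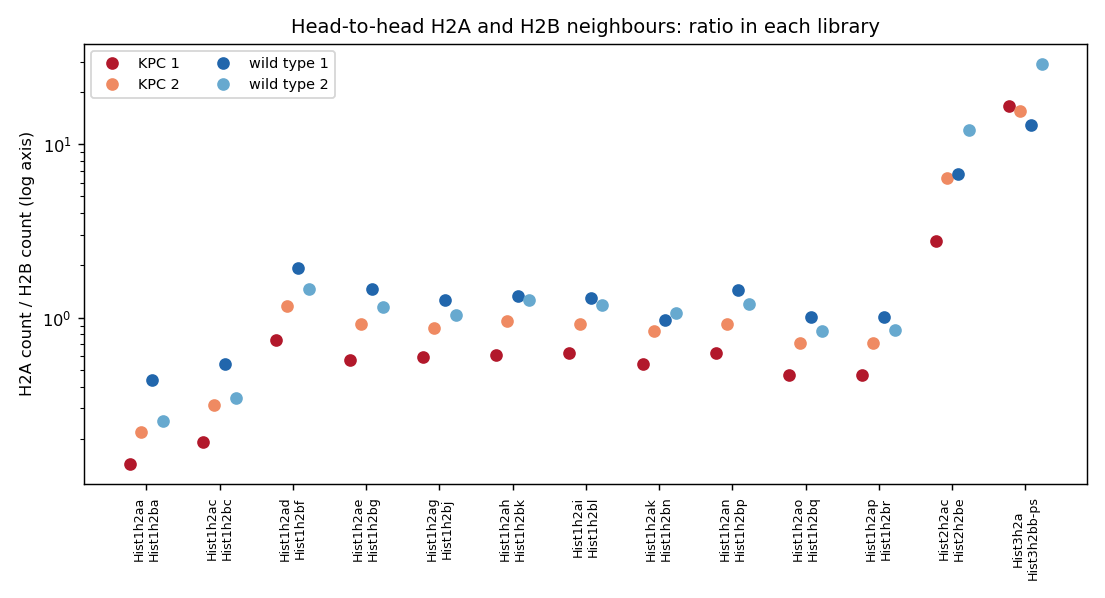
Ratio of the H2A count to the H2B count (log axis) in each library for the 13 head-to-head pairs, KPC left of wild type within a pair. In Hist1h2ae with Hist1h2bg the ratios are 0.571 and 0.918 in KPC and 1.46 and 1.16 in wild type, and in the last pair, Hist3h2a with Hist3h2bb-ps, they are 16.6 and 15.6 in KPC and 12.9 and 29.1 in wild type.

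The head-to-head arrangement means that both genes of a pair share one stretch of promoter. Hist1h2ae and Hist1h2bg serve as the example, with Hist1h1c as the leading linker histone gene. RefSeq promoter windows (GRCm38.p6, 250 bases before to 50 after the start) matched 61 of the 70 genes. Capitals mark 3 promoter motifs, found on either strand and here without overlap. The first is the CCAAT box. The second, the TATA box, was searched as TATAAA. The third is the octamer motif, searched as ATTTGCAT.
Hist1h2ae, chr13:23571171-23571470 (-): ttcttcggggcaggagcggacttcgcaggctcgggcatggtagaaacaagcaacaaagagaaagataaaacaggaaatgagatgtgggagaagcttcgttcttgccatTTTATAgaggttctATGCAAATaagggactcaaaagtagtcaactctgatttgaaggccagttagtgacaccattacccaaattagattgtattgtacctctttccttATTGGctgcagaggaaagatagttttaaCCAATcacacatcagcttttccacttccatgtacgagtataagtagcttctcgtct
Hist1h1c, chr13:23738557-23738856 (+): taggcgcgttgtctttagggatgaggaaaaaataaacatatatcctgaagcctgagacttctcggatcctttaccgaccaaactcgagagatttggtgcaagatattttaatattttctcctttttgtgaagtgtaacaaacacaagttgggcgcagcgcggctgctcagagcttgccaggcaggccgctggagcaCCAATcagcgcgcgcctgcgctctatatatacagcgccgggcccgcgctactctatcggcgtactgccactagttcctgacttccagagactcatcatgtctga

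CCAAT occurred in all 6 H1, 17 H2A, 16 H2B and 10 H3 windows and in 3 of 12 H4 windows, against 37.9% of all 27025 promoters. TATAAA occurred in 57.4% of the 61 windows and 14.2% of all promoters. The octamer, known from H2B promoters, occurred in 7 of 17 H2A and 6 of 16 H2B windows, against 1.75% of all promoters. None of the H1, H3 and H4 windows held it. The windows reach 250 bases before the start, and the head-to-head gaps span 168 to 306 bases. Each of the 3 motifs can therefore be counted for both genes of a pair.

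H1 values were set by a single gene. Hist1h1c (chromosome 13, 23738807 to 23740366), which codes for the linker histone H1.2, held 90.5% and 89.2% of the H1 counts in KPC against 86.1% and 88.4% in wild type. It stood at 92.9 and 42.4 CPM in KPC against 31.3 and 72.2 CPM in wild type. KPC 1 was highest and wild type 1 lowest, and the groups overlapped. Its log2 fold change was 0.39 ± 0.55 (SE), with an adjusted p of 0.890 by edgeR. Hist1h1d, at 5.68 and 2.79 CPM in KPC against 2.85 and 6.03 CPM in wild type, and Hist1h1e, at 3.76 and 2.00 CPM against 1.88 and 2.91 CPM, ranked the libraries much as Hist1h1c did, with KPC 1 and wild type 2 above the other two. Hist1h1b, which did not overlap, rested on 13 and 10 counts in KPC against 12 and 9 counts in wild type.

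The H3 genes summed to 28.8 and 28.7 CPM in KPC against 29.3 and 35.1 CPM in wild type, so KPC was lower without overlap, but by less than 1 CPM against wild type 1. The log2 ratio of means was -0.17. The Hist1 genes Hist1h3h and Hist1h3i had log2 fold changes of -0.04 and -0.00349. In Hist2, Hist2h3c2 stood at 4.20 and 3.45 CPM in KPC against 4.94 and 5.41 CPM in wild type, and Hist2h3c1 at 4.45 and 3.30 CPM against 5.08 and 4.92 CPM. These did not overlap, with edgeR adjusted p of 0.670 and 0.744. Hist2h3b stood at 2.06 and 1.81 CPM in KPC against 2.07 and 1.74 CPM in wild type, and the groups overlapped.

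The H4 genes summed to 37.1 and 46.2 CPM in KPC against 43.3 and 67.1 CPM in wild type. KPC 2 was above wild type 1, and wild type 2 was above the rest. All 11 tested H4 genes had negative log2 fold changes, between -0.57 for Hist1h4h and -0.25 for Hist1h4i, and the smallest edgeR adjusted p was 0.723. Hist1h4k stood at 3.30 and 4.21 CPM in KPC against 3.86 and 6.39 CPM in wild type. The ratio of summed H3 to summed H4 counts within a library was 0.776 and 0.621 in KPC against 0.678 and 0.524 in wild type, which overlapped.

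By cluster, Hist1 summed to 595 and 484 CPM in KPC against 625 and 879 CPM in wild type, Hist2 to 58.3 and 54.3 CPM against 83.5 and 134 CPM, and Hist3 to 11.5 and 9.62 CPM against 11.5 and 17.3 CPM. Hist1 and Hist2 did not overlap, and Hist3 did. Within both Hist1 and Hist2 the gap between the groups was widest in the H2A genes. Hist1 H2A genes summed to 147 and 161 CPM in KPC against 285 and 346 CPM in wild type, while Hist1 H2B genes summed to 290 and 209 CPM against 244 and 361 CPM.

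Not tested for low counts were Hist1h1a, Hist1h1t, Hist2h4 and Hist4h4. Hist1h1t, the testis-specific H1, had 0 counts in every library, which allows up to 0.0510 and 0.0442 CPM in KPC and 0.0570 and 0.134 CPM in wild type at 3 counts, counting error only. Hist1h1a had 4 and 14 counts in KPC against 4 and 3 in wild type. Hist2h4 had 1 and 11 counts in KPC against 4 and 1 in wild type, and Hist4h4 2 and 5 against 7 and 1.

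The stem-loop that ends the usual histone mRNA was searched for in the GENCODE transcripts. It was found in 46 of the 70 genes, among 59 of 55341 genes (0.107%). The most common core, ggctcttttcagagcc, occurred in 26 of them, and the H4 genes carried others. The stem-loops of 4 genes in which reads ran past this point are given with 6 bases on either side, core in capitals.
Hist1h1c, chr13:23739512-23739527 (+): ccaaaaGGCTCTTTTCAGAGCCaccact
Hist2h2aa1, chr3:96246032-96246047 (+): taaaaaGGCTCTTTTCAGAGCCacccac
Hist1h3e, chr13:23561903-23561918 (-): caaaacGGCTCTTTTAAGAGCCacctcc
Hist1h4i, chr13:22040966-22040981 (-): cttaaaGGCCCTTTTTAGGGCCaccaca

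The deposited number of covered bases shows where reads must lie past the stem-loop, because it exceeds the bases that end there. This held in all 4 libraries for 10 genes: Hist1h1c, Hist1h1d, Hist1h2ac, Hist2h2aa1, Hist3h2a, Hist1h3d, Hist1h3e, Hist2h3c1, Hist2h3c2 and Hist1h4i. No other interval overlaps 6 of them. Hist2h2aa1 and Hist2h3c1 have 0% unshared stretches and Hist1h3e has 18.75%, while the interval of Trim17 overlaps Hist3h2a. Reads counted past the stem-loop in these genes need not come from them. In Hist1h1c at least 835 and 819 bases past the stem-loop were covered in KPC, against 823 and 811 in wild type, of 838 that the interval holds there. Nearly the whole stretch was covered in all libraries, whatever the group. In Hist3h2a the same measure was 1013 and 923 bases in KPC against 875 and 781 in wild type. The measure grows with depth, and wild type 2 was the shallowest library, so it is no comparison of groups. Reads past the stem-loop do not give the share of transcripts that carry a tail.

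**Figure D5:**
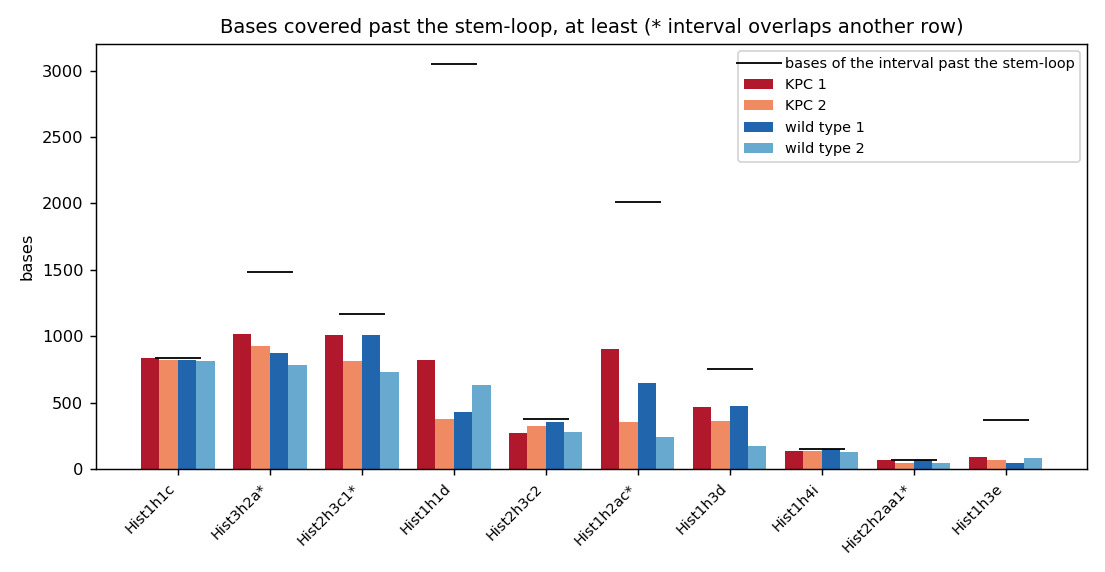
Least number of bases covered past the stem-loop in each library (bars, KPC left of wild type), for the 10 genes where it is above 0 in all 4 libraries; black lines mark the bases the interval holds past the stem-loop, and an asterisk marks an interval that overlaps another row. Hist1h1c and Hist1h4i are covered nearly to the end in every library, with 126 to 149 bases in Hist1h4i.

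The 6 genes with such reads and no overlapping interval summed to 113 and 60.2 CPM in KPC against 50.2 and 97.9 CPM in wild type. The groups overlapped. Most of each sum was Hist1h1c, at 92.9 and 42.4 CPM in KPC and 31.3 and 72.2 CPM in wild type. The median log2 fold change of the 6 genes was -0.13. The H2A pool of 11 genes, set beside them, had 117 and 129 CPM in KPC against 232 and 271 CPM in wild type. No H2A gene is among the 6, so the groups of genes also differ in histone class.

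A list of 28 small and other RNAs that usually carry no poly-A tail had 23 in the tables and 13 tested, with 12 negative log2 fold changes and a median of -1.93. None passed edgeR's test. DESeq2 called 7 lower and 0 higher at an adjusted p of 0.05, where 1.28% and 1.44% of all intervals passed. Of the 13, 9 were lower in KPC without overlap and 0 higher, where 20.5% and 20.6% of all tested intervals were. Both the 7 and the 9 include Rnu1a1, Rnu1b1, Rnu1b2 and Rnu1b6, copies of the U1 spliceosomal RNA. Their log2 fold changes were -4.63, -4.66, -4.71 and -4.80. Such copies can share reads and need not be separate measurements. Rnu6, the U6 spliceosomal RNA, had a positive value of 1.03. Across the list, levels summed to 8.22 and 11.1 CPM in KPC against 76.5 and 31.6 CPM in wild type. Rnu2-10, a copy of the U2 spliceosomal RNA, stood at 0.204 and 0.309 CPM in KPC against 3.77 and 2.50 CPM in wild type, with an edgeR adjusted p of 0.211. Rn7sk, a small RNA that holds back transcription elongation, stood at 3.30 and 3.23 CPM in KPC against 16.7 and 8.18 CPM in wild type. The sums of these RNAs and of the H2A genes were both lower in the KPC libraries, while of the wild type libraries the first was higher in wild type 1 and the H2A sum in wild type 2. The part of carry-over of RNA without tails in the H2A result was not tested.

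Genes that make, process and degrade histone mRNA varied little. Of the 18 genes listed, 9 had positive and 9 negative log2 fold changes, with a median of 0.00. In 5 of them KPC was higher and in 5 lower without overlap, where 20.6% and 20.5% of all tested intervals were. Slbp, which binds the stem-loop, stood at 20.8 and 21.6 CPM in KPC against 18.5 and 17.2 CPM in wild type, and Eri1, an exonuclease that trims histone mRNA ends, at 16.5 and 14.7 CPM against 12.2 and 12.2 CPM. Both were higher in KPC without overlap. Npat, the coactivator of histone gene transcription, stood at 5.30 and 5.25 CPM in KPC against 6.79 and 5.50 CPM in wild type, lower without overlap. Casp8ap2, Lsm10, Lsm11 and Ccne2, of histone locus bodies, the U7 particle and cyclin E, had log2 fold changes of -0.10, -0.18, 0.32 and -0.13. None of the 18 passed edgeR's test, and the smallest adjusted p was 0.640, for Eri1.

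S phase genes mostly had the opposite sign to the H2A genes. Of 28 listed, 23 had positive log2 fold changes, with a median of 0.26, and 12 were higher in KPC without overlap and 2 lower, where 20.6% and 20.5% of all tested intervals were. Mcm7, a subunit of the replicative helicase, stood at 45.6 and 47.2 CPM in KPC against 31.8 and 28.7 CPM in wild type, with a log2 fold change of 0.62 ± 0.17 (SE) and an adjusted p of 0.479 by edgeR. Pcna, the sliding clamp, stood at 55.3 and 57.5 CPM in KPC against 50.9 and 44.2 CPM in wild type. Rrm2, a subunit of ribonucleotide reductase, stood at 28.5 and 42.2 CPM in KPC against 33.4 and 34.7 CPM in wild type, and overlapped.

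Histone variant genes outside the clusters, many of them expressed throughout the cell cycle, had differences of both signs. Of 11 genes, 7 had positive and 4 negative log2 fold changes, with a median of 0.06. H2afz, the H2A.Z variant found at promoters, stood at 207 and 200 CPM in KPC against 127 and 131 CPM in wild type. The replicates of each group were close and the groups apart. The log2 fold change of H2afz was 0.66 ± 0.16 (SE), with an adjusted p of 0.412 by edgeR and 0.0357 by DESeq2. H3f3b, one of the genes for the H3.3 variant, stood at 203 and 188 CPM in KPC against 114 and 145 CPM in wild type, and H3f3a at 119 and 137 CPM against 130 and 116 CPM. H1f0, a linker histone of resting cells, stood at 67.3 and 51.9 CPM in KPC against 60.9 and 38.1 CPM in wild type. H2afx, whose transcripts hold the stem-loop as well and which shares up to 108 of its 37-base stretches with a clustered H2A gene, stood at 34.7 and 42.0 CPM in KPC against 42.4 and 50.6 CPM in wild type, and did not overlap. H2afj, named after its values were seen because it shares up to 31 stretches with clustered H2A genes, stood at 66.4 and 82.6 CPM in KPC against 89.9 and 145 CPM in wild type.

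Of 19 histone chaperones, which carry histones to DNA, 15 had positive log2 fold changes, with a median of 0.21. Anp32e, which removes H2A.Z from nucleosomes, stood at 65.9 and 61.9 CPM in KPC against 44.7 and 34.4 CPM in wild type, with an edgeR adjusted p of 0.514. None of the genes of these lists passed edgeR's test. With DESeq2, 1 variant gene passed an adjusted p of 0.05, H2afz, which was higher in KPC. In the lists of chaperones, S phase genes and histone mRNA processing, 0 genes passed with DESeq2. Over all tested intervals 1.44% passed higher and 1.28% lower. In lists this short, 0 calls lie near those shares and say little about the lists.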

How the data were processed

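Per the labels' protocols, poly-A RNA was prepared with TruSeq v2 and sequenced as single reads. The mm10 build, TopHat2 2.0.3, bedtools, SAMtools 0.1.18 and FastQC 0.10.1 appear in the submitters' processing notes. The authors deposited per library a table without header giving each interval's position, symbol, read count, bases covered, length and fraction covered. The deposited count was taken as raw from its values, and the deposited fraction and covered bases only described coverage. How reads with several matches were treated is not given in the sources used here.

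Members and gene lists were chosen with earlier results of these data known. Genes named were, per class, the 3 of highest mean CPM per kilobase, the 5 of smallest p without overlap in each direction, tested Hist2 and Hist3 genes, the 3 covered furthest beyond the coding part, and fixed genes of related lists with each list's smallest p.

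All intervals were fitted in edgeR 4.0.16 (R 4.3.3; filterByExpr, minimum count 10; TMM), two-sided, with Benjamini-Hochberg adjustment over 23046 intervals, threshold 0.05. The script was tested on simulated data. DESeq2 1.42.0 and limma 3.58.1 (voom) were alternatives, with other factors and filters, fits that leave out 1 library at a time and a replicate block. Sequence came from GENCODE M21 and RefSeq. Figures used matplotlib 3.10.9. Strand is not given in the sources used here, so overlapping genes are uncertain.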

Additional observations from a re-analysis of the deposited data

How the results depend on the processing

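Under the other composition factors, filters, an adjusted p of 0.10, summed repeated symbols and limma voom, 0 histone genes passed, as under edgeR as reported; DESeq2 called 15 lower and 0 higher. The replicate numbers did not establish a pairing (correlation of deviations 0.136, 1 value from 2 numbers), and with the replicate block 0 histone genes were called. Leaving out each library in turn also gave 0 calls in each direction, and the lone library was assumed to vary like the other group. The count of genes without overlap then lay between 2 and 11 for higher and between 26 and 59 for lower in KPC. With 1 library in a group, values separate more easily. The share of all tested intervals was not worked out for these fits, so these counts cannot be set against it. The median log2 fold change lay between -0.59 and -0.08 over all tested histone genes, -1.14 and -0.90 for H2A, -0.51 and -0.06 for H2B, -0.72 and -0.04 for H4, -0.30 and 0.14 for H3 and -0.28 and 0.61 for H1. The values without wild type 2 were -0.08 over all histone genes, -0.90 for H2A, -0.06 for H2B, -0.04 for H4, 0.14 for H3 and 0.61 for H1. Hist2h2ab lay between -1.50 and -0.34 and Hist1h2al between -1.47 and -0.62.

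Values near 0 turned their sign. Hist2h3b was -0.0555 with upper quartile factors and -0.00987 with voom. Hist1h3i was 0.00726 with no composition factors, 0.0210 with no count filter, 0.000783 with DESeq2 and 0.0238 with voom. With voom Hist1h1d was 0.0183 and Hist1h3h 0.0047. Leaving out each library gave -0.28 to 1.12 for Hist1h1c, -0.66 to 0.57 for Hist1h1d, -0.24 to 0.65 for Hist1h1e, -0.39 to 0.77 for Hist2h2be, -0.24 to 0.19 for Hist1h3h, -0.17 to 0.17 for Hist1h3i, -0.10 to 0.15 for Hist2h3b and -0.40 to 0.11 for Hist3h2bb-ps. The cause was not tested.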
